A study of Sus scrofa with 6 samples.

Results

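The genes of the DNA replication machinery were examined in primary porcine endometrial epithelial cells with and without seminal exosomes. Genes were taken by symbol, as the MCM, ORC, RFC, GINS, RPA and replicative polymerase families together with PCNA, FEN1, LIG1, PRIM1, PRIM2, CDC6, CDC45, CDT1, RRM1, RRM2 and TYMS. This gave 31 of the 10915 genes with values. Of these, 30 encode replication proteins, and MCM3AP entered through the start of its symbol. It encodes a scaffold of messenger RNA export and was put in no replication role group. The rule covers 48 single symbols apart from MCM3AP, of which 30 stood in the table. A further 7 (ORC1, RFC1, RPA1, POLA1, POLD3, POLD4 and PRIM2) were present only as bare Ensembl identifiers and are described separately. The remaining 11 (MCM5, MCM6, MCM7, MCM10, ORC6, GINS1, RPA3, POLE, POLE4, RRM2 and TYMS) were not analysed here.

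The cells were primary, adherent cultures from uteri of slaughtered pigs and were used at passage 3. Exosomes, small membrane vesicles released by cells, had been precipitated from boar semen (its sperm-rich fraction) and were given for 48 h at 10 µg per well in the exosome group, whereas the control group received none. Total RNA gave 3 libraries in each group. Whether the 3 are different animals, cultures or preparations of the same cells is not stated, so every p-value here refers only to variation among 6 libraries and that variation may be technical. Levels are in FPKM, a read measure corrected for transcript length and library size, so that genes can be set side by side.

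DNA replication begins when the origin recognition complex, with CDC6 and CDT1, loads the ring of MCM proteins onto DNA. CDC45 and the GINS complex then turn the ring into an active helicase, primase with polymerase alpha starts each strand, and polymerases delta and epsilon extend it on the sliding clamp PCNA, which the RFC complex loads. Most of these genes are driven by E2F factors and are expressed in cells that are dividing. The roles given here were worked out mainly in yeast, frog and human cells. In whole cultures, more cells in S phase and more transcript per cell cannot be told apart.

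The cultures carried epithelial markers at high levels, with 10 of 13 marker symbols in the table and a summed level of 13803 to 14208 FPKM in the controls and 11820.1 to 13003 FPKM with exosomes. Markers of stromal cells were present too (5 of 10 symbols), at a sum of 2788 to 3042 FPKM in the controls and 2274 to 2494 FPKM with exosomes, most of it from CD90 and VIM. Of the fibroblast collagen genes, COL1A2 lay between 45.1 and 56.3, COL1A1 between 0.887 and 30.0 and COL3A1 between 0.114 and 2.05 FPKM over the 6 libraries, with the groups overlapping in each. Of 7 leukocyte symbols 3 were found, in 4 rows summing to 10.8 to 12.3 FPKM in the controls and 9.49 to 12.5 FPKM with exosomes. The 1 endothelial symbol found of 5, KDR, stayed between 0.968 and 1.96 FPKM, and none of the 5 smooth muscle or 6 sperm symbols had a row. The epithelial and the stromal sums were lower in all 3 exosome libraries than in any control, and their part in the replication gene values was not tested. The number of reads is not given, but the low values carried steps of whole reads, from which depth relative to control 1 came to 0.981 and 0.920 for controls 2 and 3 and to 0.877, 0.885 and 0.942 for exosome libraries 1, 2 and 3.

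The comparison asks which transcripts differ in these cells after contact with seminal exosomes. Replication gene levels differed little between the groups, and no member passed the test. The median log2 change of the 31 members, on the log2(FPKM + 1) scale, was 0.12, against -0.0023 over the 10846 genes tested, and the median difference of the group means was 9.59%. At an adjusted p of 0.05 in limma the count was 0 of 31 members, where 0% of all genes passed, and the smallest adjusted p of a member was 0.290 for GINS4. At an unadjusted p under 0.05 there were 3 members with exosomes higher (GINS4, MCM2 and MCM4), or 9.68%, against 5.06% of all genes, and 0 with exosomes lower, against 7.5%. The 3 exosome libraries lay above the 3 controls without overlap in 6 members (GINS4, MCM2, MCM4, RFC3, ORC4 and MCM3AP), or 19.4%, against 8.29% of all genes, and below them in 0 members against 10.4% of all genes.

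The members' small differences mostly had the same sign. By role, the median log2 change ran from 0.064 for the other MCM proteins, 0.096 for origin licensing and 0.11 for the clamp and its loader to 0.14 for the 7 helicase genes and 0.21 for the 2 polymerase delta genes. These medians rest on few genes and moved with the libraries: with libraries left out they ran from 0.10 to 0.30 for polymerase delta, from 0.044 to 0.15 for origin licensing, from 0.048 to 0.17 for the clamp and loader and from 0.11 to 0.15 for the helicase. The log2 change was above 0 in 29 of 31 members, or 93.5%, where 49.2% of all genes had such a value, and above 0.1 in 19 members, or 61.3%, against 19.4%. GINS3 and RFC2 were the 2 members below 0. The members share libraries and vary together, so these counts are a description of 6 libraries and not 31 separate results. With each library scaled to 1 FPKM sum, 14 members had an unadjusted p under 0.05 with exosomes higher, against 10% of all genes, and 5 did so after quantile normalization, against 6% of all genes. Over all genes, 549 were higher and 813 lower at that p as reported, and 1089 higher and 420 lower with that scaling to 1 sum.

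**Figure D1:**
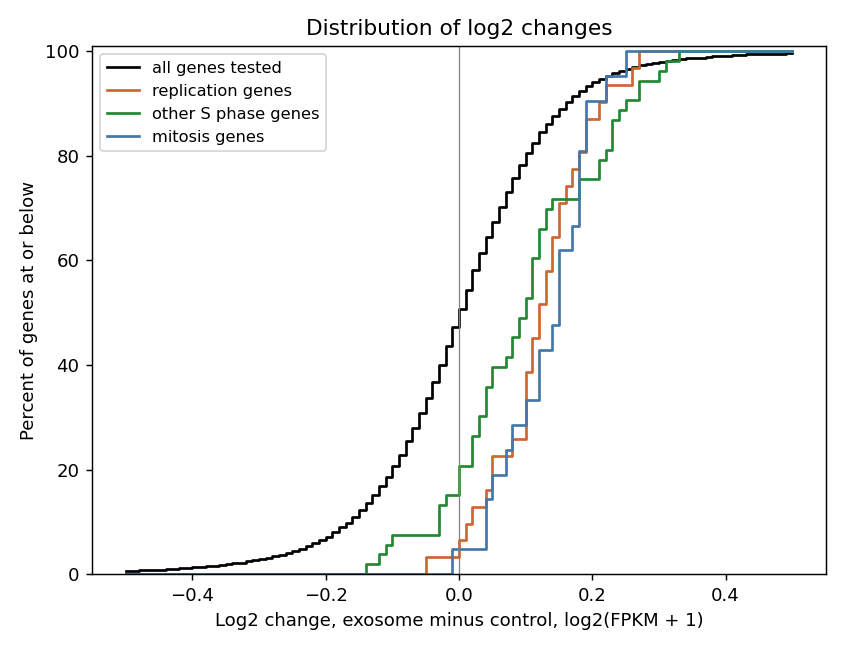
Cumulative percent of genes (y) by log2 change of exosome minus control on the log2(FPKM + 1) scale (x), for the 31 replication genes, 53 other S phase genes, 21 rows of mitosis genes and all 10846 genes tested. Between -0.1 and 0.2 the 3 list curves lie to the right of the curve of all genes, with 29 of 31 replication genes above 0.

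Among the helicase genes, GINS4, a subunit of the GINS complex of the active helicase (chr17:10656869-10668664 in RefSeq on Sscrofa11.1), was at 10.6, 10.0 and 9.38 FPKM in control libraries 1, 2 and 3 and 12.7, 11.1 and 12.7 FPKM in exosome libraries 1, 2 and 3. The groups were apart, with exosome library 2 nearest the controls. The log2 change was 0.26 with an SE of 0.077 (95% confidence interval 0.080 to 0.44, adjusted p = 0.290 in limma). MCM2, a subunit of the MCM ring that also binds histones (chr13:72630378-72651270), was at 48.1, 48.9 and 47.2 FPKM in control libraries 1, 2 and 3 and 54.1, 50.5 and 56.2 FPKM in exosome libraries 1, 2 and 3. All 3 exosome libraries lay above the controls, which lay within 2 FPKM of each other, and the log2 change was 0.15 (SE 0.055, adjusted p = 0.337). MCM4, a ring subunit that forms part of the helicase core (chr4:79674737-79686964), was at 75.1, 70.3 and 69.8 FPKM in control libraries 1, 2 and 3 and 82.5, 78.5 and 76.0 FPKM in exosome libraries 1, 2 and 3. Its groups were also apart, by less than 1 FPKM between control 1 and exosome 3, with a log2 change of 0.14 (SE 0.053, adjusted p = 0.365). The span of MCM4 overlaps LOC102164310 in RefSeq, and reads of the pair cannot be told apart if the counting ignored strand.

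The other helicase genes overlapped between the groups. MCM3, another ring subunit, ranged over 35.4 to 37.7 FPKM in the controls and 37.6 to 43.0 FPKM with exosomes, and only control 2 lay above the lowest exosome library. CDC45, which joins the ring to make the working helicase, ranged over 35.8 to 42.3 FPKM in the controls and 40.9 to 47.4 FPKM with exosomes. Its log2 change was 0.19 and control 1 stood above exosome libraries 1 and 2. GINS2 and GINS3, partners of GINS4 in the same complex, had log2 changes of 0.043 and -0.058. GINS2 ranged over 40.7 to 53.0 FPKM in the controls and 44.8 to 49.4 FPKM with exosomes. GINS3 ranged over 6.43 to 7.79 FPKM in the controls and 6.03 to 7.04 FPKM with exosomes. In both genes the highest library of all 6 was control 1. The span of GINS2 overlaps GSE1, with the same limit as for MCM4. The 95% confidence interval of GINS3, -0.27 to 0.16, overlapped that of GINS4, and no test of the difference between the 2 subunits was made.

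MCM8 and MCM9 form a separate helicase of homologous recombination. MCM8 was at 7.38, 6.76 and 6.18 FPKM in the controls and 7.31, 5.95 and 7.69 FPKM with exosomes. MCM9, the lowest member, was at 1.92, 1.99 and 2.33 FPKM in the controls and 2.19, 2.56 and 2.11 FPKM with exosomes. The groups overlapped in both, and in MCM9 exosome library 2 was the highest of the 6. The span of MCM9 overlaps ASF1A in RefSeq, so without a stated strand setting in counting some of its reads cannot be told apart from that gene. MCM3AP, which was put in no replication role group, was at 11.8, 11.8 and 11.8 FPKM in the controls and 13.5, 12.5 and 12.9 FPKM with exosomes. Its controls were within 0.1 FPKM of each other and all exosome libraries lay above them, with a log2 change of 0.13 (SE 0.058, adjusted p = 0.418 in limma).

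All 6 members of origin licensing had positive log2 changes, from 0.042 for ORC4 to 0.21 for ORC2. None of these members had an unadjusted p under 0.05 in limma. Among rows with an identifier only, ORC1 was at 0.18 (unadjusted p = 0.048) and a second ORC2 row at -0.026. ORC2, a core subunit of the origin recognition complex, was at 23.0, 26.3 and 24.4 FPKM in control libraries 1, 2 and 3 and 36.4, 23.0 and 27.9 FPKM in exosome libraries 1, 2 and 3. Exosome library 1 stood well above the other 5 libraries and exosome library 2 was level with control 1, so the mean difference rested on 1 library. The log2 change of 0.21 had a confidence interval of -0.13 to 0.55, and it was 0.044 without exosome replicate 1. ORC4, an ATP-binding subunit of the complex (chr15:4096539-4176332), was at 15.3, 16.2 and 16.1 FPKM in control libraries 1, 2 and 3 and 16.6, 16.2 and 16.3 FPKM in exosome libraries 1, 2 and 3. Its groups did not overlap, yet exosome library 2 and control 2 differed by less than 0.01 FPKM (adjusted p = 0.783).

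ORC3, which binds ORC2 within the complex, ranged over 5.62 to 6.54 FPKM in the controls and 6.21 to 7.91 FPKM with exosomes (log2 change 0.18). ORC5, an ATP-binding subunit, ranged over 11.2 to 12.9 FPKM in the controls and 12.4 to 13.8 FPKM with exosomes (log2 change 0.079). The ranges of the loading factors overlapped between the groups. CDC6, the ATPase that recruits the MCM ring, ranged over 8.65 to 10.3 FPKM in the controls and 8.97 to 10.8 FPKM with exosomes (log2 change 0.098). CDT1, which escorts the ring and is destroyed in S phase, ranged over 14.5 to 16.0 FPKM in the controls and 15.3 to 17.4 FPKM with exosomes (log2 change 0.094). In CDC6 control 1 lay above exosome libraries 2 and 3, and in CDT1 above exosome libraries 1 and 2.

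**Figure D2:**
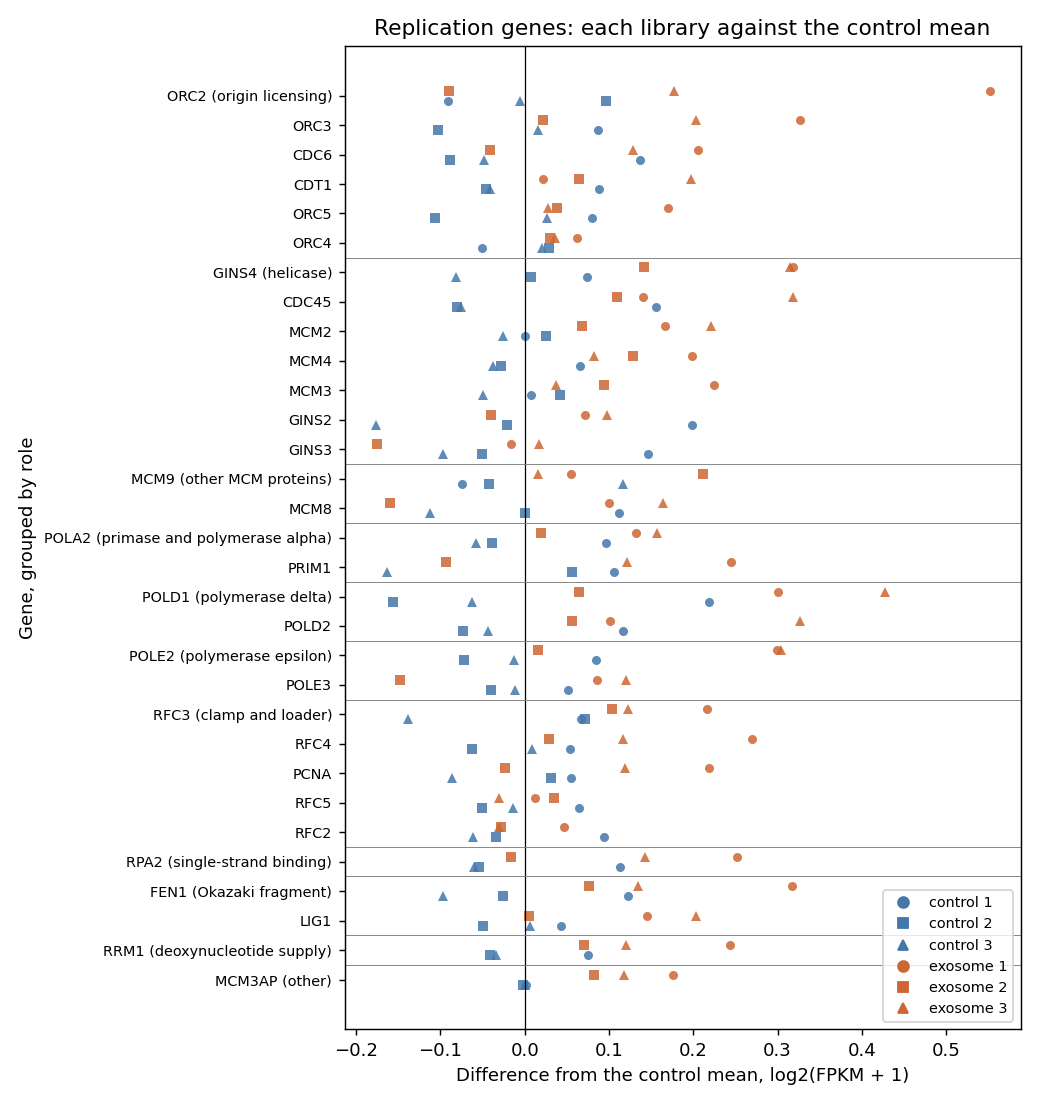
Each library's difference from the control mean on the log2(FPKM + 1) scale (x) for the 31 replication genes grouped by role (y), controls in blue below and exosome libraries in orange above, with 1 marker shape per replicate number. Exosome libraries 1 and 3 lie to the right in most rows, while exosome library 2 and control 1 lie among the opposite group in many.

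Of the genes that start strands, POLA2, the regulatory subunit of polymerase alpha, was at 28.5, 25.8 and 25.5 FPKM in the controls and 29.2, 26.9 and 29.7 FPKM with exosomes. PRIM1, the catalytic subunit of primase, was at 15.3, 14.8 and 12.5 FPKM in the controls and 17.0, 13.2 and 15.5 FPKM with exosomes. In both genes control 1 lay above exosome library 2, and the log2 changes were 0.10 and 0.091. POLD1, the catalytic subunit of polymerase delta, was at 16.8, 12.7 and 13.7 FPKM in control libraries 1, 2 and 3 and 17.9, 15.0 and 19.6 FPKM in exosome libraries 1, 2 and 3. Its log2 change of 0.26 (SE 0.12) was the largest of the 31 members together with that of GINS4, and control 1 lay above exosome library 2 (adjusted p = 0.418 in limma). POLD2, its accessory subunit, was at 11.4, 9.89 and 10.1 FPKM in the controls and 11.3, 10.9 and 13.4 FPKM with exosomes, and there control 1 lay above both exosome libraries 1 and 2. POLE2, the accessory subunit of polymerase epsilon, was at 6.00, 5.28 and 5.54 FPKM in the controls and 7.12, 5.68 and 7.16 FPKM with exosomes (log2 change 0.21), with control 1 above exosome library 2. POLE3, a histone-fold subunit of polymerase epsilon that also serves in chromatin remodelling, was at 44.8, 42.0 and 42.9 FPKM in the controls and 45.9, 38.9 and 47.1 FPKM with exosomes. Exosome library 2 was the lowest of the 6 for POLE3, and the log2 change was 0.019 with a confidence interval of -0.16 to 0.20.

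PCNA, the sliding clamp and the most abundant member (chr17:14137746-14142584), was at 128, 126 and 116 FPKM in control libraries 1, 2 and 3 and 143, 121 and 133 FPKM in exosome libraries 1, 2 and 3. Exosome libraries 1 and 3 were the highest, and exosome library 2 lay below controls 1 and 2. The log2 change was 0.11 (SE 0.071, confidence interval -0.060 to 0.27, adjusted p = 0.573 in limma). The subunits of the clamp loader, which opens the clamp and closes it around DNA, differed in their values. RFC3 (chr11:10145927-10524472) was at 24.2, 24.3 and 20.9 FPKM in the controls and 27.0, 24.9 and 25.2 FPKM with exosomes, with the groups apart by less than 1 FPKM and a log2 change of 0.15. RFC4 ranged over 23.5 to 25.5 FPKM in the controls and 25.1 to 29.8 FPKM with exosomes (log2 change 0.14), and only control 1 lay above its lowest exosome library. RFC5 ranged over 23.9 to 25.9 FPKM in the controls and 24.2 to 25.4 FPKM with exosomes (log2 change 0.0052). RFC2 was at 118, 108 and 106 FPKM in the controls and 114, 108 and 108 FPKM with exosomes, with control 1 the highest of all and a log2 change of -0.0039 (confidence interval -0.13 to 0.12). The sign of RFC2 turned positive under the 3 other scalings, with log2 changes up to 0.046. In RefSeq the spans of RFC3, RFC4 and RFC5 overlap LOC102159559, EIF4A2 and WSB2, and without a stated strand setting reads of these pairs cannot be told apart.

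RPA2, the middle subunit of the complex that coats single-stranded DNA, was at 33.8, 30.0 and 29.9 FPKM in the controls and 37.4, 30.9 and 34.6 FPKM with exosomes. FEN1, the nuclease that trims Okazaki fragments, was at 40.8, 36.8 and 34.9 FPKM in the controls and 46.9, 39.5 and 41.2 FPKM with exosomes. LIG1, the ligase that joins these fragments, was at 18.1, 17.0 and 17.7 FPKM in the controls and 19.5, 17.7 and 20.4 FPKM with exosomes. Control 1 lay above exosome library 2 in all 3 of these genes. Their log2 changes were 0.13, 0.18 and 0.12. RRM1, the large subunit of the ribonucleotide reductase that makes deoxynucleotides, was at 25.4, 23.3 and 23.4 FPKM in the controls and 28.6, 25.3 and 26.2 FPKM with exosomes. Control 1 exceeded exosome library 2 by less than 0.1 FPKM, and the log2 change was 0.14 (SE 0.066, adjusted p = 0.414).

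The members' levels spanned 2.18 FPKM for MCM9 to 128 FPKM for PCNA, as means of the 6 libraries, with a median of 24.4 against 15.0 FPKM over all genes tested. After PCNA the order ran through RFC2 (110.2), MCM4 (75.4), MCM2 (50.8) and GINS2 (47.0 FPKM). PCNA exceeded RFC2 in 6 of 6 libraries although their ranges met. RFC2, MCM4 and MCM2 were apart in range, whereas from MCM2 through GINS2, POLE3, CDC45, FEN1 and MCM3 to RPA2 each gene overlapped the next. Of the 30 pairs of neighbours in the order, 7 had ranges that did not meet. Subunits of 1 complex stood at different levels per length. RFC2 was 4.26 to 4.56 times RFC5 and 3.82 to 4.62 times RFC4 over the 6 libraries, GINS2 was 6.32 to 7.43 times GINS3, and MCM4 was 1.86 to 2.04 times MCM3.

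**Figure D3:**
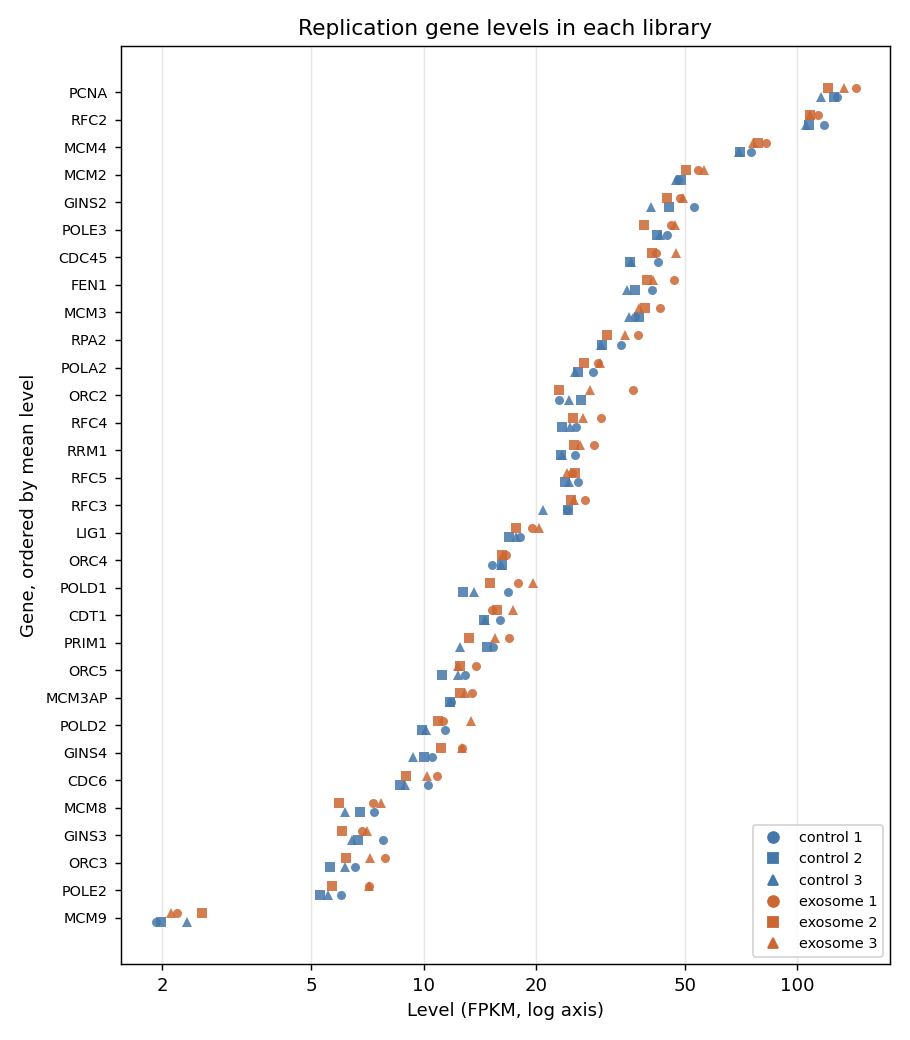
Level of each replication gene in FPKM on a log axis (x), with genes ordered by their mean over 6 libraries (y), controls in blue and exosome libraries in orange. Levels run from MCM9 near 2.18 to PCNA near 128 FPKM, and within each gene the 6 libraries lie close together compared with the spread between genes.

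Within the groups, control 1 and exosome library 2 stood apart in most members. Control 1 was the highest of the 3 controls in 25 of 31 members (80.6%), against 36.5% of all genes tested. Exosome library 2 was the lowest of its group in 24 of 31 members (77.4%), against 37.7% of all genes. The median of the members relative to the control mean was 0.080, -0.040 and -0.043 in control libraries 1, 2 and 3 and 0.18, 0.030 and 0.12 in exosome libraries 1, 2 and 3. Control 1 thus stood above exosome library 2, and the groups overlapped on this measure. Over all genes tested the same medians lay between -0.0055 and 0.0089. Relative depth was 1.0, 0.981 and 0.920 in control libraries 1, 2 and 3 and 0.877, 0.885 and 0.942 in exosome libraries 1, 2 and 3. Its part in the members' medians was not tested. Over all genes, exosome library 2 lay nearer to each control than to the other exosome libraries. The SD of its log2 ratios was 0.231, 0.203 and 0.201 to controls 1, 2 and 3. It was 0.244 and 0.251 to exosome libraries 1 and 3, against 0.222 between exosome libraries 1 and 3. The members' share of all FPKM was 0.129%, 0.120% and 0.119% in controls 1, 2 and 3 and 0.147%, 0.127% and 0.137% in exosome libraries 1, 2 and 3.

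Counts that rest on these libraries moved when one was left out. Without exosome replicate 2 the median log2 change of the members was 0.17, and 15 of 31 had an unadjusted p under 0.05 with exosomes higher, against 10.2% of all genes. At the adjusted threshold 0 of 31 members passed there, while 297 of all genes did (2.74%), and the smallest adjusted p of a member was 0.0706 for GINS4. The groups did not overlap, with exosomes higher, in 19 members without exosome replicate 2, against 19.9% of all genes, and in 20 members without control replicate 1, against 13.7%. Without control replicates 2 and 3 in turn it was 7 and 7 members, against 11.7% and 11.7% of all genes. Without exosome replicates 1 and 3 in turn it was 6 and 7 members, against 11.2% and 14.1%. At an unadjusted p under 0.05 with exosomes higher there were 6 members without control replicate 1, against 4.15% of all genes. There was 1 member without control replicate 2, control replicate 3 or exosome replicate 1 in turn, against 3.31%, 3.2% and 2.99% of all genes, which is near those shares. Without exosome replicate 3 there were 3, against 4.56%. The 2 libraries were singled out after their values were seen, and the counts without them are given as a description.

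Genes linked to S phase and its control, and genes of mitosis, were set beside the members as 2 further lists. The first also holds genes that restrain S phase or act before it, among them CDKN2A, CDKN2B, RB1 and CCND1. Among 53 other S phase genes, 42 (79.2%, against 49.2% of all genes) had a positive log2 change, with a median of 0.097. None passed the adjusted threshold, and 12 (22.6%, against 5.06% of all genes) had an unadjusted p under 0.05 with exosomes higher and 0 (against 7.5%) with exosomes lower. The groups did not overlap in 12 with exosomes higher (22.6%, against 8.29% of all genes) and in 2 with exosomes lower (3.77%, against 10.4%). TOPBP1, a scaffold for helicase activation and checkpoint signalling, had the smallest p and was at 23.0, 25.4 and 26.2 FPKM in the controls and 34.5, 28.4 and 30.1 FPKM with exosomes. DTL, which directs the destruction of CDT1 at PCNA, was at 9.40, 9.37 and 8.98 FPKM in the controls and 11.2, 10.4 and 11.4 FPKM with exosomes. FBXO5, an inhibitor of the anaphase-promoting complex, was at 9.47, 8.10 and 8.00 FPKM in the controls and 12.1, 9.82 and 10.9 FPKM with exosomes. In all 3 genes every exosome library lay above every control. DNMT1, which copies DNA methylation after replication, and DONSON, a factor of the replication fork, also did not overlap (log2 changes 0.20 and 0.17). The adjusted p of these 5 genes ran from 0.280 to 0.336 in limma. The list held both signs, as shown by a few genes chosen after their values were seen. ATRIP and RAD9A, partners of checkpoint signalling, had log2 changes of -0.15 and -0.12 with the exosome libraries below the controls, and E2F1, a transcription factor of S phase genes, was at -0.035.

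Of 21 rows for mitosis genes (20 symbols, since MKI67 had 2 identifiers), 20 (95.2%, against 49.2% of all genes) had a positive log2 change, with a median of 0.14. At an unadjusted p under 0.05 in limma there were 8 rows with exosomes higher (38.1%, against 5.06% of all genes), and none passed the adjusted threshold. Both MKI67 rows are among these 8, so that gene is counted more than once. The 5 rows with the smallest p were BUB1, TOP2A, TTK, MKI67 and CCNB1, with log2 changes from 0.16 to 0.24. TTK, a spindle checkpoint kinase, was at 15.7, 14.8 and 14.5 FPKM in the controls and 17.2, 17.0 and 16.6 FPKM with exosomes, and CCNB1, the cyclin of mitotic entry, at 129, 124 and 118 FPKM in the controls and 149, 131 and 137 FPKM with exosomes. The median of the mitosis rows relative to the control mean was 0.059, -0.00033 and -0.052 in control libraries 1, 2 and 3 and 0.22, 0.078 and 0.12 in exosome libraries 1, 2 and 3, so that exosome library 2 lay just above control 1. For the other S phase genes it was 0.043, -0.023 and -0.035 in control libraries 1, 2 and 3 and 0.16, 0.0020 and 0.11 in exosome libraries 1, 2 and 3, with control 1 above exosome library 2 as in the members.

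**Figure D4:**
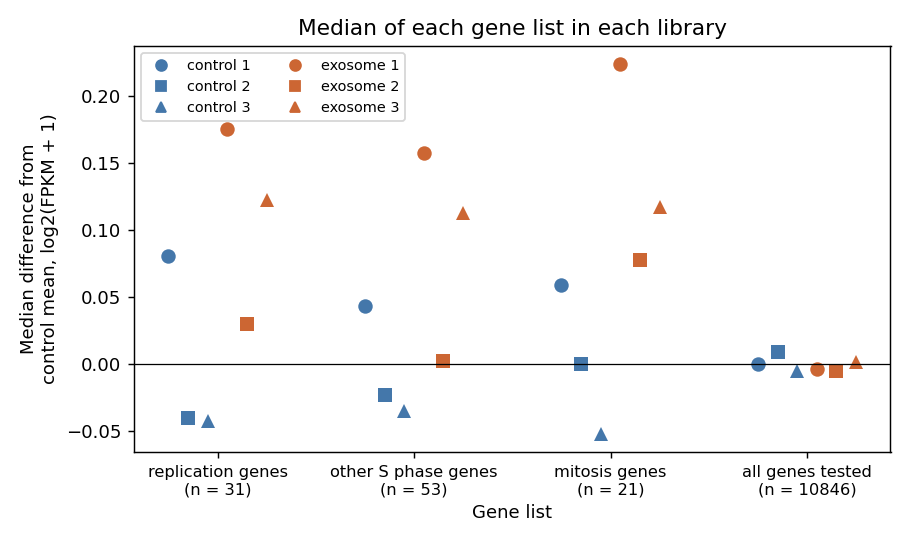
Median difference from the control mean on the log2(FPKM + 1) scale (y) of 4 gene lists (x) in each library, controls in blue and exosome libraries in orange, with 1 marker shape per replicate number. In the replication genes control 1 (0.080) stands above exosome library 2 (0.030), while all 6 libraries lie near 0 for all genes tested.

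Among the deposited rows, 9 carried no symbol but an identifier that the reference gene table lists under a replication gene. ORC1, the largest subunit of the origin recognition complex, was at 28.8, 27.0 and 25.5 FPKM in the controls and 34.3, 29.2 and 29.5 FPKM with exosomes, with all exosome libraries above the controls and a log2 change of 0.18 (adjusted p = 0.392 in limma). RFC1, the large subunit of the clamp loader, was at 17.3, 18.7 and 18.5 FPKM in the controls and 22.8, 18.7 and 21.1 FPKM with exosomes. In RFC1 exosome library 2 was level with control 2. Both ORC1 and RFC1 had an unadjusted p of 0.048 in limma, where 5.06% of all genes were under 0.05 with exosomes higher. In RefSeq the spans of ORC1, RFC1 and POLD4 overlap LOC110261230, WDR19 and LOC110259234. Without a stated strand setting, reads of these pairs cannot be told apart either. RPA1, the large subunit of the single-strand binding complex, ranged over 40.6 to 42.5 FPKM in the controls and 42.1 to 47.1 FPKM with exosomes. POLA1, the catalytic subunit of polymerase alpha, was low, over 3.53 to 3.99 FPKM in the controls and 3.46 to 4.50 FPKM with exosomes, whereas PRIM2, the large primase subunit, ranged over 50.8 to 56.0 FPKM in the controls and 53.1 to 54.3 FPKM with exosomes. POLD3 lay between 0.768 and 1.41 FPKM, and POLD4 ranged over 28.8 to 33.8 FPKM in the controls and 29.5 to 32.6 FPKM with exosomes. The remaining rows were second identifiers of ORC2 and RRM1. Over these 9 rows 6 had a positive log2 change, where 49.2% of all genes had one. Their median was 0.092, and with them added to the 31 members the median was 0.12.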

How the data were processed

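Total RNA libraries were prepared with a kit that keeps strand, per the labels' protocols. The submitters' processing notes name bcl2fastq 1.8.4, TopHat, Cufflinks and the build Sscrofa11.1; annotation, filters and the strand setting of the counting were not given there. The authors deposited 1 value per gene and library, taken as FPKM from the tool named and from the values. The lowest value was 0.0882 and none was 0.

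Tests used log2(FPKM + 1), a scale that understates the change of low genes. Genes averaging 1 FPKM or more across the libraries entered (10846 genes, with all 31 members among them). In R 4.3.3, limma 3.58.1 compared the groups by a moderated two-sided test whose prior variance followed the mean level (4 residual degrees of freedom). The p-values were adjusted by Benjamini and Hochberg's method across those genes, at a threshold of 0.05. The fit was checked on simulated data with noise independent between genes, unlike the members, which vary together. It called 45.2% of 1.25-fold changes, 81.2% of 1.5-fold changes and 0.0564% of unchanged genes. Changes were placed only in genes above a set level, so the lowest members, such as MCM9, are not covered. Changes of 2-fold and 4-fold were simulated in the same runs. The shares depend on that mix and do not give the share that would be called in the real libraries. Smaller changes, such as the members' median of 9.59%, were not simulated. Figures were drawn with matplotlib 3.10.9 in Python 3.11.15.

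The members and lists were chosen with earlier results of these data known, so no list was tested and no p was adjusted over a list. Of the 73 other S phase symbols and 29 mitosis symbols, those with a row were used. Values of every library are given for members with an unadjusted p under 0.05 or no overlap between groups, for the 2 highest of each role group and for PCNA. Of the 2 further lists, the 5 rows with the smallest p are named. Identifiers of 25 members had the same symbol in the reference gene table, and 6 were not found there. Gene positions are RefSeq's on Sscrofa11.1, found by symbol for 31 members, of which 30 are on a chromosome. Relative depth is the most frequent ratio of FPKM between 2 libraries among the 2000 lowest genes, which 8 of 10 other pairs of libraries met within 0.5%. The absolute depth is unknown, so no counting intervals are given. Promoter and protein motifs were not analysed here. Alternatives covered the pseudocount, the filter on low levels, the scaling, the variance model and a replicate block. They also covered leaving out each library, and leaving out the control and exosome libraries of the same replicate number together.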

Additional observations from a re-analysis of the deposited data

How the results depend on the processing

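No member passed the adjusted threshold under any of the 19 other settings run. The median log2 change of the members stayed positive throughout, from 0.088 to 0.17 with libraries left out, 0.12 without MCM3AP or with the mean in place of the median, and 0.17 when scaled by FPKM sum. That scaling also moved the median of all genes tested, from -0.0023 to 0.044. The members' median exceeded that of all genes by 0.124 with this scaling and by 0.121 as reported. Members at an unadjusted p under 0.05 with exosomes higher, 3 as reported, numbered 14 with scaling by FPKM sum (10% of all genes), 5 with quantile normalization (6%) and 7 with the replicate block (4.77%). With libraries left out they ranged from 0 without replicate 3 of both groups (3.01% of all genes) to 15 without exosome replicate 2 (10.2%). Members with a positive log2 change ranged from 25 to 31 with libraries left out. Over all genes tested the number past the adjusted threshold was 0 as reported and ranged from 0 to 297 with libraries left out, with 297 without exosome replicate 2. Of 588 single-member log2 changes under an alternative, 564 kept their sign and 24 turned it, in 8 members with reported values from -0.058 to 0.21. RFC2 was at 0.046 with scaling by FPKM sum, 0.0021 with scaling by median ratio and 0.034 with quantile normalization, against -0.0039 as reported. With libraries left out the ranges were -0.034 to 0.043 for RFC2, -0.035 to 0.037 for RFC5, -0.037 to 0.10 for POLE3, -0.086 to 0.13 for MCM8, -0.072 to 0.14 for GINS2, -0.14 to 0.015 for GINS3, -0.0016 to 0.41 for ORC2 and -0.0058 to 0.21 for PRIM1. The cause of these shifts was not tested. Whether the replicate numbers pair the libraries could not be settled. Deviations from the group means correlated at 0.16, 0.14 and -0.070 for numbers 1, 2 and 3. Control 3 correlated best with exosome replicate 2 (0.17). With 3 libraries per group these correlations cannot exclude pairing.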

Other observations

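ORC2 and RRM1 each had a second row under another identifier, listed under the same symbol in the reference gene table. The second ORC2 row was at 20.4, 22.4 and 21.2 FPKM in the controls and 22.2, 20.8 and 19.8 FPKM with exosomes and did not repeat the high value of the first row in exosome library 1. Summed over both rows, ORC2 was at 43.4, 48.7 and 45.6 FPKM in the controls and 58.6, 43.8 and 47.7 FPKM with exosomes. The second RRM1 row was at 41.5, 40.3 and 37.9 FPKM in the controls and 47.9, 40.1 and 43.3 FPKM with exosomes, and there exosome library 1 was highest as in the first row. Both rows together gave 66.9, 63.6 and 61.3 FPKM in the controls and 76.5, 65.4 and 69.5 FPKM with exosomes, with the groups overlapping.

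Ratios between members, mostly subunits of 1 complex, were chosen with the member values in view. They separated the groups in 4 of the 13 pairs computed. Single genes separated in 8.29% of all genes with exosomes higher and in 10.4% with exosomes lower. The share over other gene pairs was not computed. GINS2 entered both GINS ratios, so the pairs are not separate results. The ratio of POLE3 to POLE2 was 7.47, 7.95 and 7.73 in controls 1, 2 and 3 and 6.45, 6.85 and 6.58 in exosome libraries 1, 2 and 3. The ratio of GINS2 to GINS4 was 5.02, 4.52 and 4.34 in controls 1, 2 and 3 and 3.82, 4.03 and 3.90 in exosome libraries 1, 2 and 3, and that of RFC2 to RFC3 was 4.87, 4.44 and 5.07 in controls 1, 2 and 3 and 4.23, 4.35 and 4.29 in exosome libraries 1, 2 and 3. In each of these 3 pairs every exosome library was below every control. The ratio of GINS2 to GINS3 was 6.81, 6.80 and 6.32 in controls 1, 2 and 3 and 7.08, 7.43 and 7.02 in exosome libraries 1, 2 and 3, and there every exosome library was above every control. No ratio was tested. The other 9 ratios (RFC2 to RFC4 and RFC5, MCM4 to MCM2 and MCM3, MCM2 to MCM3, POLD1 to POLD2, PCNA to RFC2, POLA2 to PRIM1 and FEN1 to LIG1) overlapped between the groups, at 4.46 ± 0.125 against 4.43 ± 0.152 for RFC2 to RFC5 (SD, n = 3 per group).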
